A study of Mus musculus with 15 samples.

Results

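Laminins, integrins and the glycoproteins that join them in the vessel wall were followed across retinal endothelium of wild-type mice and of mice lacking a component of Norrin signalling. Members were the probe sets whose platform symbol names a laminin chain, an integrin alpha or beta subunit, or one of Nid1, Nid2, Hspg2, Agrn, Fn1, Sparc, Spock1, Spock2, Spock3, Vcan, Bgn, Dcn and Dag1. This gave 112 of the 45101 probe sets on the array and 48 of the 18194 genes, each gene read on its brightest probe set. Members were picked by name with no cut on measured values, but the list was drawn up with earlier results of these data known. All 48 genes were tested with no filter on dim signals. The study profiled RNA from retinal endothelial cells captured with anti-PECAM beads from adult mice on a mixed C57Bl6/129 background, to ask how the transcriptome stands long after this signalling is reduced.

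Mice of the Fz4 KO group carried Fz4-/- and lacked the receptor Frizzled4, those of the Lrp5 KO group carried Lrp5-/- and lacked its coreceptor, and those of the Norrin KO group lacked the secreted ligand. There were 3 arrays for each mutant and 6 for wild type, so the 15 arrays comprised 9 mutant and 6 wild-type pools. The RNA of each array came from a pool of 5 to 10 mice, and the p-values therefore measure the spread between pools. No treatment was given, no exact age is stated, and the labels call every pool mixed in gender. The mutations are present in every cell of the animal and the cells were taken in adulthood, so neither the cell type nor the time of onset of a change is resolved. Values are log2 signals, on which a difference of 1 is a 2-fold difference, and with 3 arrays per mutant their number limits the precision.

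A basement membrane is a thin sheet of extracellular matrix under an endothelium. Laminins, which are trimers of an alpha, a beta and a gamma chain, assemble into a network, and nidogens, perlecan and agrin tie that network to collagen and to the cell surface. Cells hold on to it through integrins, which pair an alpha with a beta subunit, and through dystroglycan. In retinal capillaries endothelial cells and pericytes share 1 basement membrane, and agrin is known as a component of the matrix of barrier vessels.

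Promoters are shown for the 2 members that rose most and the member that fell most among those whose entry in the RefSeq promoter table (GRCm38.p6) began within 1000 bases of the gene's 5′ end as examples of called members whose upstream sequence can be read. Larger rises than that of Lamb1 belonged to Itgb3, Itga9 and Nid2, which are not among them. Each is the 250 bases before the start site on the plus strand, and capitals mark every match to 4 motifs searched on both strands. The motifs were the TCF and LEF core CTTTGA, through which beta-catenin acts, the GC box GGGCGG, the ETS core CCGGAA and the AP-1 element TGANTCA. No 2 of the marked matches overlap.
Lamb1, chr12:31265043-31265292: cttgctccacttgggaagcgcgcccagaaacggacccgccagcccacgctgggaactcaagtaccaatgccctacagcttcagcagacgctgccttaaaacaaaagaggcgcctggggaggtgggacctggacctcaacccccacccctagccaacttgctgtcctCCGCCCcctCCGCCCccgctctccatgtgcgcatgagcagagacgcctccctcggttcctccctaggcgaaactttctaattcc
Hspg2, chr4:137468553-137468802: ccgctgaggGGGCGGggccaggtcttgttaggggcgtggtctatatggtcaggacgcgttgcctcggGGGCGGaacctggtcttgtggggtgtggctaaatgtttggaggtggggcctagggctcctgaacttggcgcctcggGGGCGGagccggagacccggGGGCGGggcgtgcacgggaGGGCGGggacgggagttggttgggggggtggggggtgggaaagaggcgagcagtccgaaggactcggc
Spock2, chr10:60106007-60106256: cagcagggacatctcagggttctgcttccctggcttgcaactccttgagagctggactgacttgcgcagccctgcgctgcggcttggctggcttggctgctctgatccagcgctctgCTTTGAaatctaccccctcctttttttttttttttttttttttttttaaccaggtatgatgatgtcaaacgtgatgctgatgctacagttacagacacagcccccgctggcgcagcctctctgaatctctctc

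The Lamb1 promoter holds 2 GC boxes on the minus strand, that of Hspg2 holds 5 on the plus strand, and that of Spock2 holds 1 TCF and LEF core. The start site in the table lies 147 bases inside the gene for Lamb1 and 52 for Hspg2. Of the 48 members 33 have an entry, and each motif was also counted over all 32851 promoters of this length. GC boxes were in 15 of the 33 member promoters (45.5%) and in 32.7% of all, and TCF and LEF cores in 6 (18.2%) against 13.8%. ETS cores and AP-1 elements were each in 2 member promoters (6.06%), against 12.0% and 6.75% of all. The 6 members with a TCF and LEF core were Bgn and Lama2, which rose over the mutants, Spock2, which fell, and Itga1, Itga10 and Itgam, which did not pass. A match is a description of the letters and not of a bound site.

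Both targeted genes that these arrays can read fitted the labels. Fzd4 lay at 3.98 to 4.56 in Fz4 KO against 11.5 to 12.27 elsewhere, and Lrp5 at 4.40 to 5.25 in Lrp5 KO against 7.22 to 8.24, while Ndp, which encodes Norrin, lay near background on every array. The mean of 10 endothelial markers lay at 11.57 to 11.95 on all arrays, and none of the 10 was below the median on every array. The mean of 10 pericyte and smooth muscle markers lay at 11.31 to 11.88, so the pools also held mural cell RNA. The macrophage and microglia markers averaged 8.20 to 9.68 in wild type against 9.69 to 10.71 in the mutants, where 7 of the 10 rose and none fell. The rod and neuron markers averaged 5.89 to 6.89 in wild type against 6.49 to 8.06. The mean of 9 Muller glia and astrocyte markers lay at 9.96 to 10.77 in wild type and 10.07 to 10.94 in the mutants. Lrp5 KO 1, Lrp5 KO 3 and wild type 4 stood apart on the second principal component (17.8% of the variance), and Norrin KO 1 had an actin control gap between 3′ and 5′ signals of 2.92 against 0.56 to 1.45 on the other arrays. By Xist and Eif2s3y all 3 Norrin KO pools were male and the other groups held pools of several kinds. In pooled RNA fewer cells of a type and less RNA per cell cannot be told apart.

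Of the 48 members 18 rose and 6 fell over the mean of the 3 mutants (limma, adjusted p of at most 0.05 over all genes). This is 37.5% up and 12.5% down, against 14.0% up and 9.91% down of all genes. The members' median difference was 0.32, beside -0.01 for all genes. At an unadjusted p below 0.05, 30 members passed in either direction (62.5%, against 34.4% of all genes). Members whose 9 mutant arrays all lay above all 6 wild-type arrays numbered 14, against 4.76% of all genes, and those wholly below numbered 2, Fn1 and Spock2, against 3.53%. When the mean of the macrophage and microglia markers was entered as a covariate, 10 rose and 2 fell (3.85% and 4.27% of all genes), and all 12 were among the 24. Those that still rose were Bgn, Hspg2, Itga5, Itga9, Itgb3, Itgb4, Lama2, Lama4, Lamb1 and Nid2, and those that still fell were Fn1 and Spock2. The marker mean was higher on every mutant array than on every wild-type array, so this fit cannot separate the markers from genotype. For calls that ended under it, here and below, the part of macrophages was therefore not tested.

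Each mutant was also set against the same 6 wild-type arrays. Fz4 KO had 16 rises and 3 falls among the members (10.7% and 6.08% of all genes), Lrp5 KO had 13 rises and 4 falls (5.63% and 7.27%), and Norrin KO had 16 rises and 6 falls (16.7% and 9.13%). The shares that fell, 6.25%, 8.33% and 12.5%, lay near those of all genes, and the shares that rose, 33.3%, 27.1% and 33.3%, lay above them. The macrophage covariate left 8 rises for Fz4 KO (2.85% of all genes rose), 8 rises and 2 falls for Lrp5 KO (2.96% and 4.84%), and 10 rises and 3 falls for Norrin KO (5.08% and 4.22%). Without the 3 arrays that stood apart, which leaves 1 Lrp5 KO array assumed to vary like the other groups, 7 rose and 2 fell in Lrp5 KO (2.35% and 1.71% of all genes). The 4 falls in Lrp5 KO were 2 without Lrp5 KO 1 and 2 without Lrp5 KO 3.

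**Figure D1:**
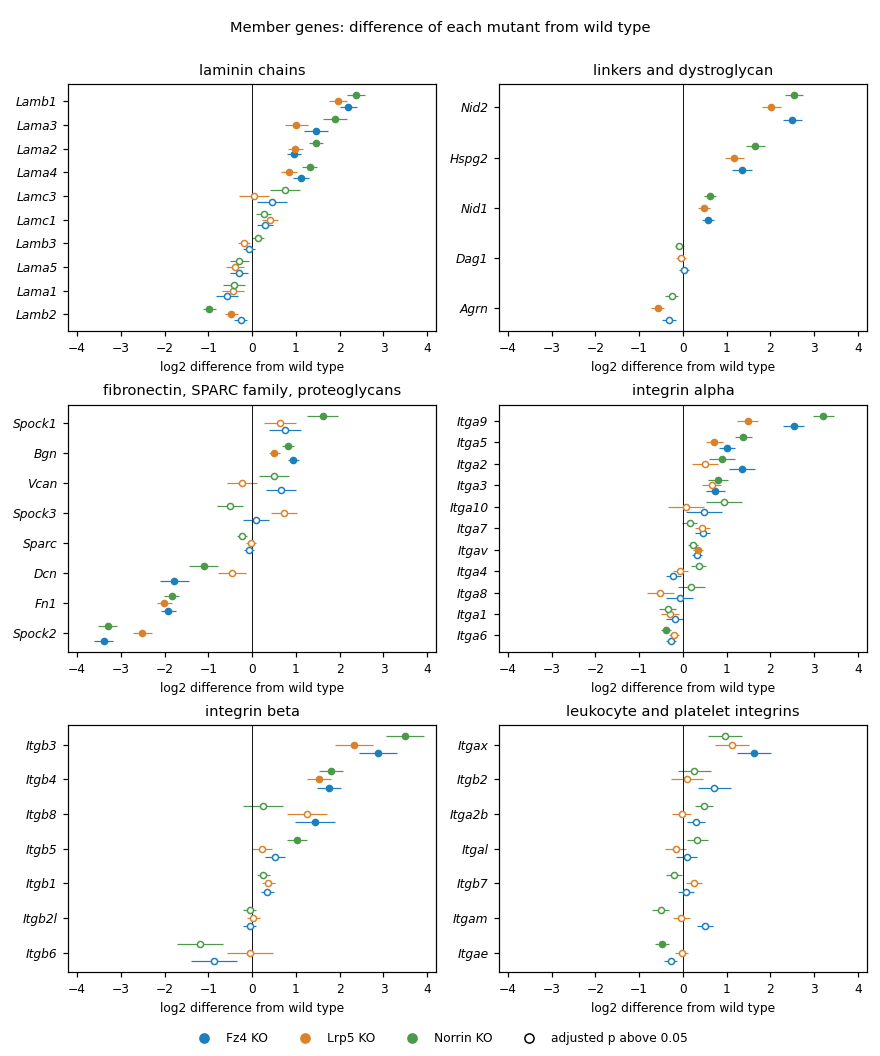
Log2 difference from wild type (x axis) of each of the 48 member genes (y axis), by role, with 1 point per mutant and its standard error; filled points have an adjusted p of at most 0.05. Nid2, Lamb1, Itgb3 and Itga9 lie to the right in all 3 mutants, with differences over the mutants of 2.35, 2.18, 2.90 and 2.41, and Spock2 and Fn1 lie to the left (-3.06 and -1.92).

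The laminin chains changed unequally. Of 10 measured, 4 rose over the mutants (Lamb1, Lama2, Lama3 and Lama4), 1 fell (Lamb2), and the median difference was 0.37. This is 40% up and 10% down, against 14.0% and 9.91% of all genes. Both beta chains that are common in vessels are among those called, with Lamb1 up by 2.18 and Lamb2 down by 0.57.

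Lamb1 encodes the beta1 chain of the laminins that endothelium lays down. It read 12.26, 12.37 and 12.40 in the Fz4 KO pools, 12.16, 12.27 and 11.87 in Lrp5 KO and 12.73, 12.18 and 12.63 in Norrin KO, against 9.68 to 10.60 (median 10.14) in wild type. Every mutant pool lay more than a full log2 unit above the highest wild-type pool. The rise was 2.18 ± 0.15 (SE, adjusted p = 7.19e-08), which came to 2.20 for Fz4 KO, 1.96 for Lrp5 KO and 2.37 for Norrin KO, and all 4 of its probe sets rose, by 0.88 to 2.44.

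Lama4 encodes the alpha4 chain, the characteristic alpha chain of endothelial laminin. Its signal was 12.04, 12.09 and 11.97 in the Fz4 KO pools, 11.82, 11.93 and 11.58 in Lrp5 KO and 11.99, 12.00 and 12.72 in Norrin KO, against 10.51 to 11.20 (median 10.94) in wild type. No mutant pool overlapped wild type, and Norrin KO 3 was the highest of all. Over the mutants it rose by 1.09 ± 0.13 (adjusted p = 2.77e-05), and its second probe set gave 1.13.

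Lama2 encodes the alpha2 chain, which is made by mural cells, glia and muscle as well. In Fz4 KO it was 10.59, 10.51 and 10.38, in Lrp5 KO 10.62, 10.69 and 10.30, and in Norrin KO 11.36, 10.54 and 11.10, while wild type held to 9.44 to 9.71 (median 9.52). The 9 mutant pools were all higher than wild type, with Norrin KO 1 and Norrin KO 3 the highest. The difference was 1.13 ± 0.12 (adjusted p = 5.81e-06). In the same pools 2 of 10 pericyte and smooth muscle markers rose and 1 fell. Of 9 Muller glia and astrocyte markers 1 rose and 2 fell. The part of either cell kind in this result was not tested.

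Lama3, the alpha3 chain best known from epithelia, measured 9.76, 9.56 and 9.75 in the Fz4 KO pools, 9.05, 9.56 and 9.12 in Lrp5 KO and 10.61, 9.77 and 9.96 in Norrin KO. Wild type ranged from 7.29 to 8.81 (median 8.33), with wild type 4 at the bottom, and did not overlap the mutants. Its rise of 1.45 ± 0.20 (adjusted p = 9.47e-05) rested on 1 of 2 probe sets, as the other was at -0.21 (adjusted p = 0.477). It was 0.92 (adjusted p = 0.139) with the macrophage covariate, and in Lrp5 KO, where it was 1.01, the call ended without Lrp5 KO 2 or Lrp5 KO 3 (adjusted p up to 0.105).

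Lamb2 encodes the beta2 chain, which replaces beta1 in laminins of arteries, synapses and the glial limit. It lay at 11.33, 11.04 and 11.04 in the Fz4 KO pools, at 10.64, 11.12 and 10.99 in Lrp5 KO and at 10.09, 10.63 and 10.52 in Norrin KO, against 11.25 to 11.57 (median 11.38) in wild type. Fz4 KO 1 reached into the wild-type range, and the Norrin KO pools were the lowest. Over the mutants it fell by 0.57 (SE 0.11, adjusted p = 0.00136), and by mutant the differences were -0.26 for Fz4 KO (adjusted p = 0.272), -0.48 for Lrp5 KO (0.0455) and -0.98 for Norrin KO (0.000228). The call in Lrp5 KO ended without any 1 of 12 arrays (adjusted p up to 0.25), and that over the mutants ended with the macrophage covariate (-0.50, adjusted p = 0.180).

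Lamc1 encodes the gamma1 chain, common to most vascular laminins, and has the highest wild-type signal of the laminin probe sets, which does not rank the genes. Its pools read 12.41, 12.47 and 12.00 in the Fz4 KO pools, 12.42, 12.40 and 12.34 in Lrp5 KO and 11.83, 12.39 and 12.54 in Norrin KO, against 11.54 to 12.24 (median 12.03). Fz4 KO 3 and Norrin KO 1 lay within the wild-type range. The difference of 0.32 ± 0.14 did not pass (adjusted p = 0.111) and was called without Norrin KO 1 (adjusted p = 0.0318). The second probe set of Lamc1 rose by 0.58 over the mutants (adjusted p = 0.00978) and by 0.94 in Fz4 KO (0.00428), and the mean of both probe sets rose by 0.45 (adjusted p = 0.0218).

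The other 4 laminin chains did not pass over the mutants on their brightest probe sets. Lama5, the second endothelial alpha chain, was at -0.33 (adjusted p = 0.153), Lama1, the alpha chain of embryonic basement membranes, at -0.47 (0.0787) and Lamc3 at 0.42 (0.275). Of the other probe sets of Lama5, 1 fell by 0.44 over the mutants (adjusted p = 0.0404, and 0.0613 without Norrin KO 1) and the third was at -0.38 (0.107), and the mean of all 3 fell by 0.38 (0.0256). Lamb3, a chain of epithelial laminin, was at -0.04 with a wild-type mean of 3.74, below the array medians of 5.88 to 6.04, where the size of any change is compressed. Lama1 also lay below the median on every array.

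Of the 5 linkers and dystroglycan, Nid2, Hspg2 and Nid1 rose over the mutants, Agrn fell and Dag1 did not pass. This is 60% up and 20% down, against 14.0% and 9.91% of all genes. The median difference was 0.55.

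Nid2 encodes nidogen-2, which bridges laminin and collagen IV. Its signal was 11.53, 11.61 and 11.67 in the Fz4 KO pools, 11.22, 11.23 and 10.90 in Lrp5 KO and 11.42, 11.42 and 12.08 in Norrin KO, against 8.69 to 9.56 (median 8.97) in wild type. All mutant pools stood far above wild type, and Lrp5 KO 3 was the lowest of them. The rise was 2.35 ± 0.16 (adjusted p = 5.06e-08), which came to 2.50 for Fz4 KO, 2.02 for Lrp5 KO and 2.54 for Norrin KO.

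Nid1, the other nidogen, rose by less, 0.55 ± 0.11 (adjusted p = 0.00137), from 11.58 to 12.17 in wild type to 12.25 to 12.66 in the mutants, without overlap. Its other probe sets rose by 1.10 and 1.05. In Lrp5 KO (0.48) the call ended without any 1 of 7 arrays (adjusted p up to 0.136), in Fz4 KO (0.57) without Fz4 KO 2 or Fz4 KO 3 (up to 0.0753), and with the macrophage covariate the difference over the mutants was 0.65 (adjusted p = 0.0669).

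Hspg2 encodes perlecan, the large heparan sulphate proteoglycan of basement membranes. It measured 11.45, 11.53 and 11.28 in the Fz4 KO pools, 11.47, 11.38 and 10.88 in Lrp5 KO and 11.84, 11.40 and 11.93 in Norrin KO, against 9.50 to 10.60 (median 10.16) in wild type. The groups did not overlap, and the closest pair was Lrp5 KO 3 and wild type 4. Its rise was 1.39 ± 0.17 (adjusted p = 2.30e-05), and its second probe set gave 1.73.

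Agrn encodes agrin and has the highest wild-type signal of the linker probe sets. It was 11.97, 12.09 and 11.79 in the Fz4 KO pools, 11.58, 11.78 and 11.73 in Lrp5 KO and 11.69, 12.05 and 12.30 in Norrin KO, against 11.94 to 12.48 (median 12.31) in wild type. Only the Lrp5 KO pools were all below the wild-type range. Over the mutants Agrn fell by 0.39 (SE 0.11, adjusted p = 0.0216), a call that ended without wild type 1 or wild type 2 (adjusted p up to 0.055) and with the macrophage covariate (-0.22, adjusted p = 0.601). By mutant it passed in Lrp5 KO only, at -0.58 (adjusted p = 0.0213), and there not without Lrp5 KO 1 or Lrp5 KO 3 (adjusted p up to 0.0993), against -0.32 in Fz4 KO and -0.26 in Norrin KO, and its second probe set was at -0.05 over the mutants. Dag1, which encodes dystroglycan, the laminin and agrin receptor, was at -0.04 ± 0.08 (adjusted p = 0.782) on its brightest probe set, and at -0.08 in Norrin KO. Its other 3 probe sets were lower in Norrin KO, at -1.17, -0.88 and -1.21 (adjusted p = 0.0109, 0.00802 and 0.00853), and did not pass over the mutants (-0.45, -0.36 and -0.45). On the first of these the Norrin KO pools read 7.12, 8.92 and 8.79 against 9.22 to 9.80 in wild type, with Norrin KO 1, the array with the wide actin gap, far below the rest. Without that array the same probe sets of Dag1 were at -0.59, -0.53 and -0.66 and still passed (adjusted p up to 0.0367).

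**Figure D2:**
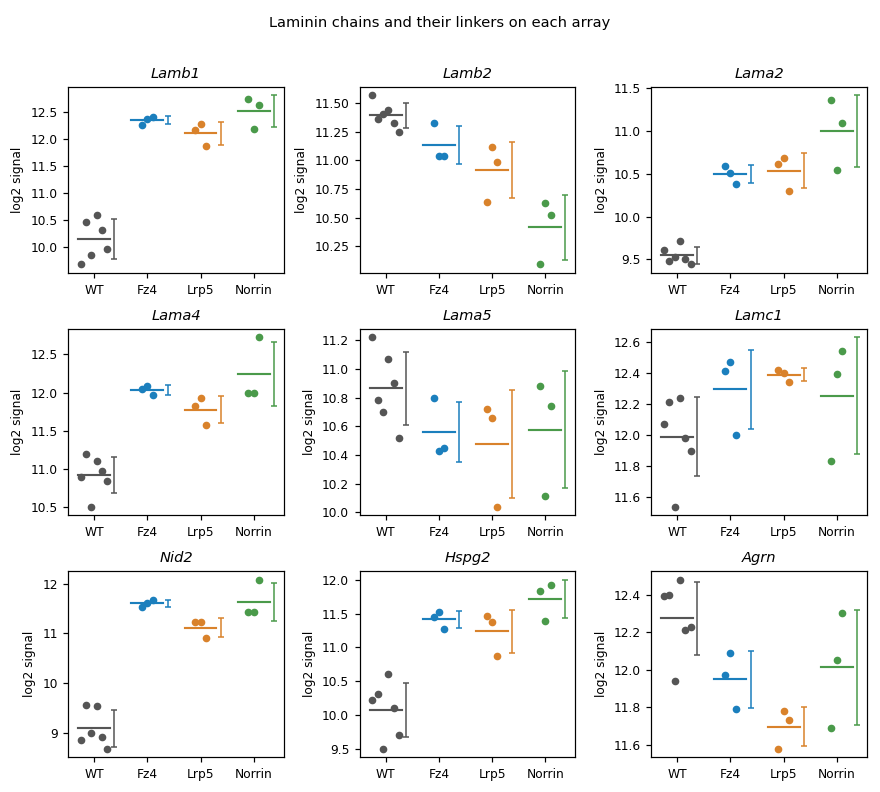
Log2 signal (y axis) of 9 laminin and linker genes on each array by genotype (x axis); each point is 1 pool, the line is the group mean and the bar beside it the SD. Lamb1, Lama2, Lama4, Nid2 and Hspg2 sit above wild type in all 9 mutant pools, whereas Lamb2 steps down to means of 11.13, 10.91 and 10.41 in Fz4, Lrp5 and Norrin KO from 11.39 in wild type.

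Fibronectin, the SPARC family and the proteoglycans moved both ways: of 8 genes 3 fell over the mutants (Spock2, Fn1 and Dcn), 2 rose (Bgn and Spock1), and the median difference was -0.01. This is 37.5% down and 25% up, against 9.91% and 14.0% of all genes. The falls of Spock2 and Fn1 were wide, and on no mutant array did either reach the wild-type range.

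Spock2 encodes testican-2, a secreted proteoglycan of the SPARC family that is abundant in the nervous system. It read 10.37, 10.74 and 9.45 in the Fz4 KO pools, 10.83, 11.44 and 10.93 in Lrp5 KO and 10.17, 10.34 and 10.32 in Norrin KO, against 13.45 to 13.69 (median 13.58) in wild type. Wild type was tight and high, and the Lrp5 KO pools were the highest of the mutants. It fell by 3.06 (SE 0.16, adjusted p = 5.09e-09), and by mutant the differences were -3.39, -2.51 and -3.30 in Fz4, Lrp5 and Norrin KO. The second probe set was at -4.25.

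Fn1 encodes fibronectin, the ligand of several integrins of the alpha5 and alphav kind. Its signal was 11.35, 10.94 and 11.45 in the Fz4 KO pools, 11.22, 11.45 and 10.81 in Lrp5 KO and 11.60, 10.99 and 11.41 in Norrin KO, against 13.06 to 13.25 (median 13.18) in wild type. The mutant pools overlapped one another and none came near wild type. Fn1 fell by 1.92 (SE 0.12, adjusted p = 3.73e-08), by 2.07 on its second probe set, and the differences by mutant were -1.92, -2.01 and -1.84.

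Dcn encodes decorin, a small leucine-rich proteoglycan of fibroblast and perivascular matrix. It was 6.03, 5.57 and 5.63 in the Fz4 KO pools, 7.67, 6.89 and 6.60 in Lrp5 KO and 6.07, 6.05 and 7.12 in Norrin KO, against 6.89 to 8.25 (median 7.53) in wild type. Fz4 KO lay below all wild-type pools, whereas Lrp5 KO and Norrin KO overlapped them. It fell by 1.12 over the mutants (SE 0.25, adjusted p = 0.00403), with -1.78 for Fz4 KO, -0.46 for Lrp5 KO (adjusted p = 0.456) and -1.11 for Norrin KO, whose call ended without Norrin KO 1 or Norrin KO 2 (adjusted p up to 0.118). With the macrophage covariate it was at -0.29 (adjusted p = 0.730), and its second probe set was at -0.47 and did not pass. The mean of 8 fibroblast markers was 7.50 to 7.84 in wild type, 7.18 to 7.55 in Fz4 KO, 7.04 to 7.34 in Lrp5 KO and 7.67 to 7.96 in Norrin KO, with 1 marker up and 1 down over the mutants and Lum and Dpt below the median of every array. The part of these cells in the fall of Dcn was not tested.

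Bgn encodes biglycan, a relative of decorin. It rose by 0.76 ± 0.10 (adjusted p = 4.10e-05), from 11.07 to 11.61 in wild type to 11.81 to 12.49 in the mutants, with no overlap, and its 3 probe sets rose by 0.76 to 0.94. By mutant the differences were 0.94, 0.51 and 0.82, and in Lrp5 KO the call ended without Lrp5 KO 2 or Lrp5 KO 3 (adjusted p up to 0.0783). Bgn is X-linked, and the Norrin KO pools were male by their sex-linked signals, the part of which was not tested.

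Spock1, testican-1, lay low on every array: 4.22, 3.62 and 5.65 in the Fz4 KO pools, 4.81, 4.03 and 4.31 in Lrp5 KO and 5.41, 5.33 and 5.31 in Norrin KO, against 3.21 to 4.26 (median 3.63). The Norrin KO pools were all above wild type, and the other mutants overlapped it. Its rise of 1.00 ± 0.27 (adjusted p = 0.0126) lay below the array medians in all groups, was not seen on its other probe set (0.14) and passed by mutant in Norrin KO only (1.61, adjusted p = 0.00431). It did not pass with the macrophage covariate (1.5, adjusted p = 0.0807) or without the 3 arrays that stood apart (0.89, adjusted p = 0.0864).

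Sparc, a collagen-binding protein of remodelling matrix with the highest wild-type signal of these probe sets, read 13.63, 13.75 and 13.66 in the Fz4 KO pools, 13.81, 13.67 and 13.68 in Lrp5 KO and 13.40, 13.54 and 13.63 in Norrin KO, against 13.52 to 13.98 (median 13.76). All groups overlapped, and the difference of -0.11 ± 0.08 did not pass (adjusted p = 0.382). The dimmest of its 3 probe sets fell by 0.47 (adjusted p = 0.0122). Vcan, versican, was at 0.31 (adjusted p = 0.431) and Spock3, testican-3, at 0.10 (0.790).

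**Figure D3:**
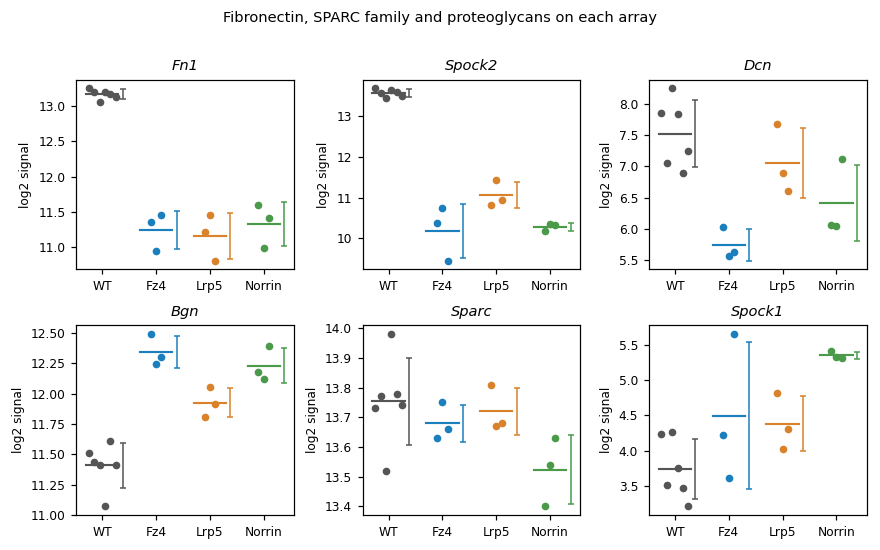
Log2 signal (y axis) of 6 matrix glycoprotein genes on each array by genotype (x axis), with 1 point per pool, the group mean as a line and the SD as a bar. Fn1 falls from a wild-type mean of 13.17 to 11.25, 11.16 and 11.33, and Spock2 from 13.57 to 10.19, 11.06 and 10.28, while Sparc overlaps in all groups.

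Integrin subunits were read in 3 sets. Of 11 alpha subunits outside the leukocyte and platelet set 5 rose over the mutants (Itga9, Itga5, Itga2, Itga3 and Itgav), 1 fell (Itga6), and the median difference was 0.35. Of 7 beta subunits 3 rose (Itgb3, Itgb4 and Itgb5), none fell, and the median was 0.59. The shares that rose were 45.5% of the alpha and 42.9% of the beta subunits, against 14.0% of all genes. The share of alpha subunits that fell was 9.09%, near the 9.91% of all genes.

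Itgb3 encodes the beta3 subunit, which pairs with alphav on angiogenic endothelium and with alphaIIb on platelets. Its pools were 10.50, 10.35 and 10.30 in the Fz4 KO pools, 9.66, 10.07 and 9.75 in Lrp5 KO and 11.14, 11.21 and 10.64 in Norrin KO, against 5.63 to 8.34 (median 7.78) in wild type. All mutant pools lay above wild type, in which wild type 4 was the lowest by far. The rise was 2.90 ± 0.32 (adjusted p = 9.45e-06), 2.52 without wild type 4, and the second probe set rose by 0.89. It was 1.70 (adjusted p = 0.0438) with the macrophage covariate. Itga2b, the platelet partner, was at 0.25 (adjusted p = 0.288), and the mean of 7 platelet and lymphocyte markers was 6.11 to 6.80 in wild type and 6.25 to 7.75 in the mutants. Of these markers 2 rose, Pf4 by 2.00 (adjusted p = 3.59e-05) and Gp1bb by 0.65 (0.00696). None fell over the mutants, and the median difference of the 7 was 0.05. In Fz4, Lrp5 and Norrin KO that median was -0.2, -0.02 and 0.31, and 1 marker fell in Norrin KO. By mutant Pf4 was at 1.93, 1.60 and 2.47, and Gp1bb at 0.05, -0.18 and 2.09, highest for both in Norrin KO, as was Itgb3. The part of platelet RNA in the rise of Itgb3 was not tested.

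Itgav, the alphav subunit, rose by 0.30 ± 0.08 (adjusted p = 0.0143), from 11.78 to 11.94 in wild type to 12.03 to 12.42 in the mutants, with no overlap between them. On this brightest probe set it passed by mutant in Lrp5 KO only (0.35, adjusted p = 0.0497), a call that ended without any 1 of 13 arrays, against 0.32 in Fz4 KO (0.0584) and 0.23 in Norrin KO (0.143). Its other probe sets differed by mutant. One rose by 1.47 in Fz4 KO (adjusted p = 0.00537) and 1.42 in Lrp5 KO (0.00989), but was at -0.05 in Norrin KO. Another passed in Fz4 KO (0.97, 0.049) and Lrp5 KO (1.06, 0.0439). A further one passed in Norrin KO (1.30, 0.0195), and the last did not pass (-0.32 over the mutants). Itgb5, another partner of alphav, rose by 0.59 ± 0.17 over the mutants (adjusted p = 0.0182) and by 1.03 in Norrin KO. Of its 4 probe sets 2 rose, both ending in _x_at, by 0.59 and 0.62. Those at 0.36 (adjusted p = 0.0772) and 0.31 (0.131) did not pass, nor did they in Norrin KO (0.39 and 0.28). Itgb5 was at 0.12 (adjusted p = 0.860) with the macrophage covariate. Itgb8, a partner that activates TGF-beta, was at 0.97 (adjusted p = 0.0510) and Itgb6 at -0.70 (0.225). In Fz4 KO Itgb8 passed at 1.43 (adjusted p = 0.0454), but not without any 1 of 10 arrays.

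Itga9 encodes the alpha9 subunit, a receptor for tenascin and for other matrix ligands that is known from lymphatic valves. It measured 8.98, 8.67 and 9.16 in the Fz4 KO pools, 7.57, 8.22 and 7.87 in Lrp5 KO and 10.20, 9.39 and 9.28 in Norrin KO, against 5.95 to 6.97 (median 6.36) in wild type. On this probe set the mutants formed an order without overlap, with Lrp5 KO lowest and Norrin KO highest, all above wild type. Over the mutants it rose by 2.41 ± 0.18 (adjusted p = 1.94e-07), by 2.53, 1.48 and 3.21 in Fz4, Lrp5 and Norrin KO, and its other probe sets rose by 1.97 and 1.46. The order of the mutants differed by probe set: on the second, Fz4 KO had the highest mean, 9.25, above Norrin KO at 8.42 and Lrp5 KO at 7.13, and wild type was at 6.29. There Lrp5 KO did not pass against wild type (0.83, adjusted p = 0.0593), and Fz4 KO was higher than Lrp5 KO by 2.13 (adjusted p = 0.00963), a difference of 1.05 and 0.66 on the others that did not pass.

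Itga5 encodes the alpha5 subunit, which with beta1 forms the main fibronectin receptor. It read 11.13, 10.99 and 11.24 in the Fz4 KO pools, 11.09, 11.02 and 10.39 in Lrp5 KO and 11.69, 11.05 and 11.74 in Norrin KO, against 9.78 to 10.32 (median 10.13) in wild type. No pool overlapped, though Lrp5 KO 3 came close to wild type. Its rise of 1.04 ± 0.14 (adjusted p = 8.99e-05) varied by probe set, at 0.75 (called), 0.38 and 0.28 (neither called) on the others. In Lrp5 KO (0.72) the call ended without Lrp5 KO 1 or Lrp5 KO 2 (adjusted p up to 0.134).

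Itgb4 encodes the beta4 subunit, which pairs with alpha6 as a laminin receptor. Its signal was 7.80, 6.90 and 7.95 in the Fz4 KO pools, 7.17, 7.70 and 7.06 in Lrp5 KO and 7.93, 7.40 and 7.44 in Norrin KO, against 5.16 to 6.20 (median 5.78) in wild type. All mutant pools lay above wild type, whose mean of 5.79 was just below the array medians of 5.88 to 6.04. The rise was 1.70 ± 0.20 (adjusted p = 1.84e-05), with 1.76, 1.52 and 1.80 by mutant. Itga6, its alpha partner, fell by 0.29 (SE 0.08, adjusted p = 0.0195) and by 0.35 on its second probe set. By mutant it passed in Norrin KO only (-0.38, adjusted p = 0.0207, and 0.0983 without Norrin KO 1), and with the macrophage covariate it was at -0.19 (adjusted p = 0.536).

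Itgb1 encodes the beta1 subunit, which pairs with most laminin and collagen binding alpha subunits and has the highest wild-type signal of the beta probe sets. It was 11.97, 12.10 and 11.98 in the Fz4 KO pools, 12.05, 12.01 and 12.05 in Lrp5 KO and 11.41, 12.19 and 12.14 in Norrin KO, against 11.46 to 11.78 (median 11.70) in wild type. Norrin KO 1 was the lowest array of all, and the other 8 mutant pools lay above wild type. The difference of 0.32 ± 0.11 did not pass (adjusted p = 0.0552) and was 0.41 (adjusted p = 0.00134) without Norrin KO 1, the pool with the wide 3′ to 5′ actin gap, whose part was not tested. Of its other 5 probe sets 1 rose, by 0.38 (adjusted p = 0.0491).

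Itga1, the collagen-binding alpha1 subunit and the brightest of the alpha probe sets in wild type, read 12.33, 12.36 and 12.39 in the Fz4 KO pools, 12.02, 12.35 and 12.40 in Lrp5 KO and 11.45, 12.66 and 12.50 in Norrin KO, against 12.45 to 12.62 (median 12.56). Norrin KO 1 was again the lowest and Norrin KO 2 the highest of all, and the difference of -0.28 ± 0.15 did not pass (adjusted p = 0.210). The other probe set of Itga1 rose by 0.46 in Norrin KO (adjusted p = 0.0467). Itga2, another collagen-binding subunit, rose by 0.92 ± 0.22 (adjusted p = 0.00721) at signals below the array medians on every array. In Norrin KO (0.90) its call ended without any 1 of 7 arrays (adjusted p up to 0.232), and over the mutants it ended with the macrophage covariate (0.71, adjusted p = 0.361). Itga3, a laminin receptor subunit, rose by 0.73 ± 0.16 (adjusted p = 0.00410). Its call in Fz4 KO (0.74) ended without any 1 of 5 arrays and in Norrin KO (0.80) without Norrin KO 1, and with the macrophage covariate it was at 1.02 (adjusted p = 0.0535).

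The 4 remaining alpha subunits and Itgb2l did not pass over the mutants or in any mutant on their brightest probe sets. Itga7, a laminin receptor of muscle and mural cells, was at 0.35 (adjusted p = 0.0601), Itga10 at 0.49, Itga8 at -0.13 and Itga4, which binds fibronectin and Vcam1, at 0.03. A dimmer probe set of Itga4 rose by 1.05 in Norrin KO (adjusted p = 0.00244), at 5.98, 6.32 and 6.73 against 4.79 to 5.87 in wild type. Over the mutants that probe set did not pass (0.32, adjusted p = 0.183). Itgb2l was at -0.03 with all groups near background.

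**Figure D4:**
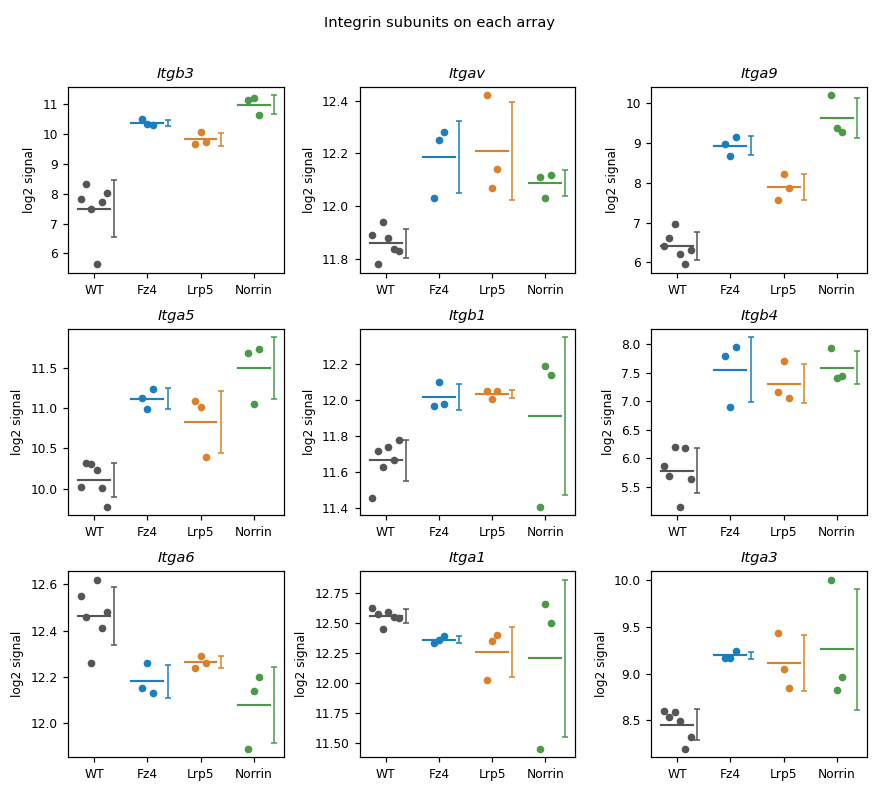
Log2 signal (y axis) of 9 integrin subunits on each array by genotype (x axis), with 1 point per pool, the group mean as a line and the SD as a bar. Itgb3 and Itga9 rise most, by 2.90 and 2.41 over the mutants, Itgb1 and Itga1 each have 1 low Norrin KO pool, and Itga6 falls by 0.29.

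Leukocyte and platelet integrins were kept apart because blood-derived cells are known for them. Of 7 measured 1 rose over the mutants (Itgax), none fell, and the median difference was 0.08. The share that rose, 14.3%, lay near the 14.0% of all genes. In the same pools 7 of 10 macrophage and microglia markers rose.

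Itgax encodes the alphaX subunit (CD11c) of dendritic cells and macrophages. It was 6.87, 6.41 and 7.95 in the Fz4 KO pools, 6.53, 7.01 and 6.17 in Lrp5 KO and 6.83, 5.89 and 6.50 in Norrin KO, against 4.67 to 6.54 (median 5.42) in wild type. Wild type 3 reached into the range of every mutant, and Fz4 KO 3 was the highest. The rise was 1.23 ± 0.29 (adjusted p = 0.00624), and with the macrophage covariate it was 0.75 (adjusted p = 0.459). By mutant it passed in Fz4 KO only (1.62, adjusted p = 0.00987), and not without Fz4 KO 3 (adjusted p = 0.0864).

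Itgb2, the common beta subunit (CD18) of the leukocyte integrins and the brightest of this set in wild type, measured 7.82, 8.15 and 8.58 in the Fz4 KO pools, 7.32, 7.78 and 7.57 in Lrp5 KO and 8.07, 7.97 and 7.13 in Norrin KO, against 5.98 to 7.98 (median 7.72). Wild type 4 was the lowest array by far and the other groups overlapped. The difference of 0.35 ± 0.28 did not pass (adjusted p = 0.405). Itgam (CD11b) was at -0.02, Itgal at 0.08, Itgae at -0.26 and Itgb7 at 0.04, and none of these passed. Itgae passed in Norrin KO alone (-0.48, adjusted p = 0.0344) at signals below the array medians, and not without any 1 of 4 arrays.

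**Figure D5:**
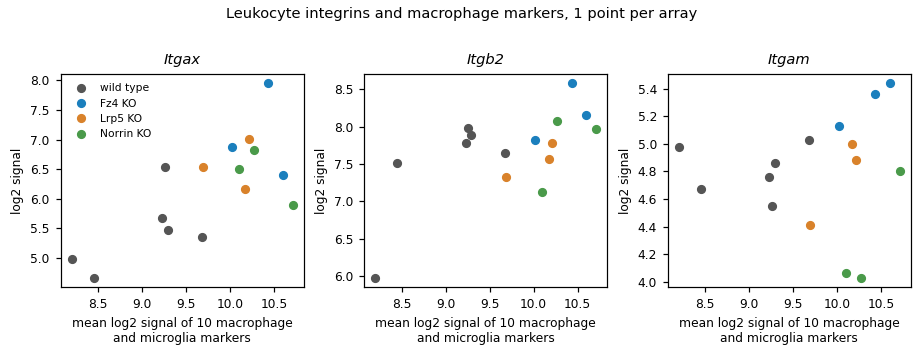
Log2 signal (y axis) of Itgax, Itgb2 and Itgam against the mean log2 signal of 10 macrophage and microglia markers (x axis), with 1 point per array coloured by genotype. All mutant arrays lie to the right of the wild-type arrays (9.69 to 10.71 against 8.20 to 9.68), while the Itgb2 and Itgam signals of the groups overlap.

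Between mutants the counts of called members were small and moved with single arrays. Fz4 KO and Lrp5 KO differed in none of 48 at an adjusted p of at most 0.05 (0.225% of all genes did), where 7 passed unadjusted in limma (14.6%, against 9.17% of all genes), and limma with trend and robust settings called 0. Fz4 KO and Norrin KO differed in 2 (4.17%, against 2.32% of all genes), and Norrin KO and Lrp5 KO in 2 (4.17%, against 11.9%). With 1 array left out these counts ran from 0 to 3 and from 1 to 6.

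Itga9 was higher in Norrin KO than in Lrp5 KO by 1.73 ± 0.28 (adjusted p = 0.00318), a call that held without any single array (adjusted p up to 0.0199). It ended with the actin gap as a covariate, with only the groups compared and without the 3 arrays that stood apart, under each of which no member was called in that comparison. Spock3 was lower in Norrin KO, at 2.37, 2.97 and 2.15, than in Lrp5 KO, at 4.00, 3.90 and 3.25, by -1.22 ± 0.34 (adjusted p = 0.0357). Its Fz4 KO pools were 3.98, 2.71 and 2.52 and wild type lay at 2.48 to 3.22 (median 3.04), so all groups were near background, and the call ended without any 1 of 4 arrays (adjusted p up to 0.139). The other Spock3 probe set went the other way in this comparison, at 0.33, and did not pass (adjusted p = 0.134). Against wild type that probe set was higher in Norrin KO, by 0.36 (adjusted p = 0.0389).

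Lamb2 was higher in Fz4 KO than in Norrin KO by 0.72 ± 0.17 (adjusted p = 0.0421), and the call ended without any 1 of 11 arrays (adjusted p up to 0.149). Itgam, a myeloid subunit, was 5.13, 5.44 and 5.36 in the Fz4 KO pools, 4.41, 4.88 and 5.00 in Lrp5 KO and 4.03, 4.80 and 4.06 in Norrin KO, against 4.55 to 5.03 (median 4.81) in wild type. Every Fz4 KO pool lay above every Norrin KO pool, by 1.02 ± 0.22 on average (adjusted p = 0.0311), at signals below the array medians. That call ended without any 1 of 5 arrays (adjusted p up to 0.114).

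Over the mutants the probe sets gave shares near those of the genes. Of the 112 member probe sets 37 rose and 11 fell over the mutants, adjusted over the 34958 probe sets with 1 symbol, of which 12.6% rose and 8.21% fell. Among the 33 members with more than 1 probe set, 10 had all of them called one way, 12 had some called and the rest not, 11 had none called and 0 had calls in both directions. Between Norrin KO and Lrp5 KO 8 of the 112 member probe sets were higher and 3 lower in Norrin KO, where 2 of the 48 genes were called. These probe set counts lay near the shares of all probe sets, 7.04% and 2.33%. The higher ones read Bgn, Itga1, Itga4, Itga9 and Nid1, and the lower ones Itgav and Spock3. Between Fz4 KO and Norrin KO 2 were higher in Fz4 KO (Itgam and Itgav) and 1 was lower (Itga4), where 0.764% and 0.901% of all probe sets were. Between Fz4 KO and Lrp5 KO 1 was higher in Fz4 KO (Itga9) and 0 were lower, where 0.137% and 0.0429% of all probe sets were.

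Partners of these receptors were counted from 3 lists. Of 21 adaptors of focal adhesions 6 rose and 3 fell over the mutants (28.6% and 14.3%, median 0.18). Of all genes 14.0% rose and 9.91% fell. Tns3 (0.74, adjusted p = 0.000128), a tensin, and Zyx (0.74, adjusted p = 0.00615), zyxin of stress fibres, rose most, and Parvb (-1.31) and Lims2 (-1.20), a parvin and a PINCH protein that both bind integrin-linked kinase, fell most. Of 20 other integrin ligands 9 rose and 3 fell (45% and 15%, median 0.32). The rises were led by Tgfbi (3.00, adjusted p = 6.35e-11), a secreted adhesion protein, and Emilin2 (2.41, adjusted p = 2.72e-05), an elastic fibre protein. The largest falls there were Vtn (-1.75, adjusted p = 1.59e-07), vitronectin, which binds alphav integrins, and Ccn1 (-0.52), a matricellular ligand. Of 12 dystroglycan partners and glycosylation enzymes 1 rose and 1 fell (8.33% each, no more than among all genes), with a median of 0.00. Sgcb (1.07, adjusted p = 0.00146), a sarcoglycan, rose, and Utrn (-0.29, adjusted p = 0.00646), utrophin, fell.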

How the data were processed

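RNA from 15 pools of captured retinal endothelial cells was hybridized to Affymetrix mouse arrays. Log2 signals of 45101 probe sets were used as deposited. Per the submitters' processing notes the authors made them with RMA, which corrects background, quantile normalizes arrays and summarizes probes. Its version, and whether all arrays were normalized together, is not given in the sources used here. Quantile normalization can hide shifts shared by most genes, and dim probe sets understate changes. Symbols came from the platform table: 34958 probe sets have 1 symbol, 932 several and 9211 none, and the latter kinds were left out.

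The brightest probe set by mean signal stood for a gene, giving 18194 genes. The 4 group means were fitted in limma 3.58.1 (R 4.3.3; lmFit, contrasts.fit, eBayes) with Benjamini-Hochberg adjustment over all genes, and the fit was tested on simulated data. Every member was described, with values in every array for those called over the mutants at a log2 difference of at least 1, for those called between mutants and for the brightest in wild type of each role. Of 3 pathway lists the 2 largest called rises and falls were named. The members, lists and alternatives were chosen with earlier results of these data known. No list was tested as a set. Alternatives were 13 settings and leaving out each of 15 arrays in turn. Promoters came from RefSeq (GRCm38.p6).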

Additional observations from a re-analysis of the deposited data

Results flagged for a closer look

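Of the 48 members 7 had a wild-type array far from the other 5, where the gap to the nearest array is given as a share of the group's range and chance flags about 1 in 20 groups. No share of all genes under this rule is given, so the count is not read as particular to the members. Wild type 4 was low for Itgb3 (0.681 of the range, at 5.63 against 7.48 to 8.34), Itgb2 (0.765, at 5.98 against 7.51 to 7.98) and Bgn (0.626, at 11.07 against 11.41 to 11.61). The same array had the lowest macrophage and microglia marker mean, 8.20, and stood apart on the second principal component over all genes. Wild type 1 was high for Dag1 (0.65, at 11.12 against 10.96 to 11.01) and low for Itgb7 (0.681, at 5.37 against 5.78 to 5.97), wild type 3 was low for Itgb2l (0.795, at 3.54 against 3.95 to 4.06) and wild type 6 low for Spock3 (0.722, at 2.48 against 3.01 to 3.22), both Itgb2l and Spock3 at signals below the array medians.

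Differences between mutants passed in limma for 4 members: Itga9 in Norrin KO against Lrp5 KO (1.73), Spock3 in the same comparison (-1.22), and Itgam (1.02) and Lamb2 (0.72) in Fz4 KO against Norrin KO. The other Spock3 probe set was at 0.33 in Norrin KO against Lrp5 KO and did not pass.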

How the results depend on the processing

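Of 303 recomputed counts of called members 258 lay within 1.5 times the reported count, and no called member reversed. Of the 24 members called over the mutants 11 kept call and direction in every setting run (Lamb1, Lama2, Lama4, Nid2, Hspg2, Bgn, Itga9, Itgb3, Itgb4, Fn1 and Spock2), and 18 of the 24 uncalled stayed uncalled. The macrophage covariate lowered the counts over the mutants to 10 up and 2 down, in Fz4 KO to 8 up, in Lrp5 KO to 8 up and 2 down and in Norrin KO to 10 up and 3 down. That covariate cannot be separated from genotype in these arrays. In Lrp5 KO 7 rose and 2 fell without the 3 arrays apart and with the replicate block, and 2 fell with wild type split by matched array sets. For Fz4 KO against Norrin KO (2 called) the replicate block, the actin gap and only the groups compared each gave 0, and centring, single probe sets and genes above the median each gave 1. For Norrin KO against Lrp5 KO (2 called) the actin gap, only the groups compared and the 3 arrays left out gave 0, quantile normalization and the mean of probe sets 4, genes above the median 5, and trend with robust 6. For Fz4 KO against Lrp5 KO (0 called) the mean of probe sets and leaving out _x_at and _s_at probe sets each gave 1. The cause was not tested. With single arrays left out, rises and falls ranged over 18 to 20 and 5 to 7 over the mutants, 12 to 17 and 3 to 4 in Fz4 KO, 9 to 15 and 2 to 4 in Lrp5 KO, and 15 to 16 and 4 to 7 in Norrin KO, and calls over 0 to 3 for Fz4 KO against Norrin KO and 1 to 6 for Norrin KO against Lrp5 KO. The replicate numbers do not pair all groups: deviations of same-numbered Lrp5 KO and Norrin KO arrays correlated at -0.0975 to 0.0659. Arrays in the same position did deviate together for Lrp5 KO and wild type 4 to 6 (0.653, 0.511 and 0.293) and for Fz4 KO and wild type 1 to 3 (0.276, 0.299 and 0.337), sets that the labels do not name.

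The arrays limit what can be read for dim probe sets: Spock1, Spock3, Itga2, Itgae, Itgam, Itgb2l, Lama1 and Lamb3 lay below the array medians, where the size of a change is compressed. The number of pools limits the precision of each mutant.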
